A study of Homo sapiens with 12 samples.

Results

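The olfactory receptor genes of chromosome 11 were taken as the protein-coding genes of that chromosome whose symbol is OR followed by a number, letters and a number. This gave 171 of 20098 protein-coding genes on chromosomes 1 to 22 and X. Receptor genes whose symbol ends in P were not members, although the annotation lists some of them as protein-coding. Of the members, 55 belong to class I (families OR51, OR52 and OR56) and 116 to class II (every other family). Members lying no more than 500 kb apart were joined into 11 clusters, which together span 5.87 Mb. The class I genes form a single cluster from OR52B4 to OR52W1 (chr11:4388493-6221416, GRCh37), and the largest class II cluster holds 48 genes from OR4A16 to OR5AK2 (chr11:55110677-56757318).

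The study profiled HAP1, a near-haploid human cell line with impaired p53 function, by chromatin immunoprecipitation and sequencing with antibodies to the cohesin subunit SMC1, to the zinc-finger protein CTCF, or with control IgG. Wild-type cells were set against the single mutants ΔWAPL and ΔSCC4 and the double mutant ΔWAPL/ΔSCC4. ΔWAPL cells were made by CRISPR with a Blasticidin cassette and come from the clone labelled WaplKO_3.3. ΔSCC4 cells carry a Puromycin cassette in SCC4, and the double mutant was made by disrupting SCC4 in the ΔWAPL cells. Each mutant is therefore a clonal line, and a difference between clones cannot be told apart from the effect of the deleted gene. With 1 library for each antibody and genotype there were no replicates, so no test was made between genotypes and the intervals given cover counting error only. Where 4 values follow each other, they stand for wild-type cells, the WAPL mutant, the SCC4 mutant and then the double mutant.

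Olfactory receptors are G protein-coupled receptors of sensory neurons in the nose, where each neuron transcribes a single receptor gene and keeps the others silent. Outside that tissue most receptor genes are not transcribed and lie in gene-dense but inactive clusters. Cohesin is a ring that embraces DNA and forms loops, it is loaded with the help of SCC2/SCC4, and it is released by WAPL. CTCF binds a directional DNA motif at which cohesin often comes to rest. Transcription of the members was not analysed here, so their silence in HAP1 cells was not measured.

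The peak lists held 91831 SMC1 peaks and 174081 CTCF peaks in all. Recovered depths were close to each other, with 6.79 to 8.41 reads per kb in the SMC1 libraries and 6.53 to 8.41 in the CTCF libraries. No IgG peak lay in the clusters in any genotype, where a count of 0 allows up to 0.628 per Mb (95% Poisson bound). All of chromosome 11 held only 4 to 8 IgG peaks, or 0.0319 to 0.0639 per Mb on the rest of the chromosome. With IgG peaks that rare, a count of 0 says little about background in the clusters. The clusters held 37.9% GC against 41.7% on the rest of the chromosome, and 94.6% against 96.0% of their positions began a 65-mer found once in the genome. All 34 SMC1 and 74 CTCF regions of the clusters had a unique 65-mer at the summit. The deletions themselves could not be checked from these lists. No SMC1 peak lay within 10 kb of WAPL in any genotype, wild-type included. Within 10 kb of SCC4 (also named MAU2) there were 3, 4, 3 and 3 SMC1 peaks, so SCC4 mutants had them as well.

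The CTCF sites on which most of the results below turn are printed first. Each stretch of 59 bases is the best motif match near a CTCF summit, read in the orientation of the motif from the GRCh37 sequence, and the capitals mark the 19 bases of the match. The motif, with the consensus NNGCCACCAGGGGGCGCNN, was learned from 1000 strong wild-type CTCF peaks on other chromosomes, both strands were searched, and 5% of flanking windows of the same length also passed its threshold. The first group shows sites that held SMC1 in all 4 genotypes.
OR51D1 (chr11:4658278-4658336, plus strand): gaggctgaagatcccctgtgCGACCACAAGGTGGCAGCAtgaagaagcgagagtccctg
OR52N2 (chr11:5829827-5829885, minus strand): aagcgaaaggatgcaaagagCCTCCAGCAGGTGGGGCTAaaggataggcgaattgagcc
OR52M1 (chr11:4561016-4561074, minus strand): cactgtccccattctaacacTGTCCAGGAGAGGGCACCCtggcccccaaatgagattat
OR51B5 intron (chr11:5497611-5497669, plus strand): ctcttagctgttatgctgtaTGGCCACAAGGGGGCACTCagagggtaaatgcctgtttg
OR4S1 (chr11:48329490-48329548, plus strand): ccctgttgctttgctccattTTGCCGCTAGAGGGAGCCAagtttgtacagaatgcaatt
OR8A1 border (chr11:124456287-124456345, minus strand): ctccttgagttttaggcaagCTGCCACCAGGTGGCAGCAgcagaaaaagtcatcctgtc
The next site held SMC1 only in ΔWAPL and ΔWAPL/ΔSCC4 cells, and the one after it held CTCF in all 4 genotypes and SMC1 in none.
OR10G7 (chr11:123940220-123940278, plus strand): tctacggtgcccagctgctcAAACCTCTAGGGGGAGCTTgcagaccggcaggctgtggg
OR4C6 (chr11:55474671-55474729, minus strand): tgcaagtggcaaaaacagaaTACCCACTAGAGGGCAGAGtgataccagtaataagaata
The last pair are near-identical copies in neighbouring receptor pseudogene-named loci, of which OR5D2P held SMC1 in ΔWAPL cells alone and OR5D3P in no genotype.
OR5D2P (chr11:55482924-55482982, plus strand): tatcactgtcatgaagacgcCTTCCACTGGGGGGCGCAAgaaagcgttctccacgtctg
OR5D3P (chr11:55494355-55494413, plus strand): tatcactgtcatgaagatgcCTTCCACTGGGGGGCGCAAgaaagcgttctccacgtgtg

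Few receptor genes had cohesin nearby. An SMC1 peak lay within 10 kb of 15 of the 171 members in wild-type cells, or 8.77% (95% Wilson interval 5.39 to 14%), against 52.3% of all protein-coding genes. ΔWAPL cells had one near 20 members (11.7%, 7.70 to 17.4%), where the figure for all genes was 73.3%. The number fell to 12 members in the ΔSCC4 list (7.02%, 4.06 to 11.9%), compared with 38.7% of all genes. The double mutant gave 22 members (12.9%, 8.65 to 18.7%) against 60.2%. The 228 olfactory receptor genes of other chromosomes gave similar shares, from 5.70% in ΔSCC4 to 10.5% in both ΔWAPL and double mutant cells. Among the 246 ZNF genes of chromosome 19, another large family of clustered genes, the shares were higher in each genotype, at 16.7%, 35.0%, 12.6% and 22.0%. Neighbouring members share windows and peaks, so these genes are not independent of each other.

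Receptor genes are also shorter than most genes. The median member is 1074 bp long, against 21.5 kb for the other genes of chromosome 11, and a long gene has a wider window. When the window was set around the start of each gene alone, 9, 13, 8 and 14 members had an SMC1 peak. These are 5.26%, 7.60%, 4.68% and 8.19%, against 28.7%, 55.0%, 19.6% and 36.6% of all genes.

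CTCF was near more members than SMC1 in each genotype. A CTCF peak lay within 10 kb of 32 members in wild-type cells (18.7%, against 75.3% of all genes) and of 35 in ΔWAPL cells (20.5%, against 75.3%). The number was 30 in ΔSCC4 cells (17.5%, against 71.9%) and 37 in the double mutant (21.6%, against 76.8%). CTCF was near 28 members in all 4 genotypes (16.4%, against 70.2% of all genes) and near 129 in none (75.4%, against 20.5%). Every member with SMC1 also had CTCF nearby in at least 1 genotype, so SMC1 or CTCF was found near 42 members (24.6%, against 84.0%). The same holds for 23.7% of receptor genes on other chromosomes and 55.3% of the chromosome 19 ZNF genes. Changes between the CTCF lists touched few members. Of the 32 members with CTCF in wild-type cells, only OR56B4 lacked it in ΔWAPL (3.12%, against 2.87% of all genes with a wild-type CTCF peak). OR51V1, OR56B4 and OR8I2 lacked it in ΔSCC4 (9.38%, against 5.66%). Of the 139 members without CTCF in wild-type cells, 4 had a peak in ΔWAPL (2.88%, against 8.51% of all genes without one in wild-type), 1 in ΔSCC4 (0.719%, against 3.29%) and 8 in the double mutant (5.76%, against 12.5%).

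**Figure D1:**
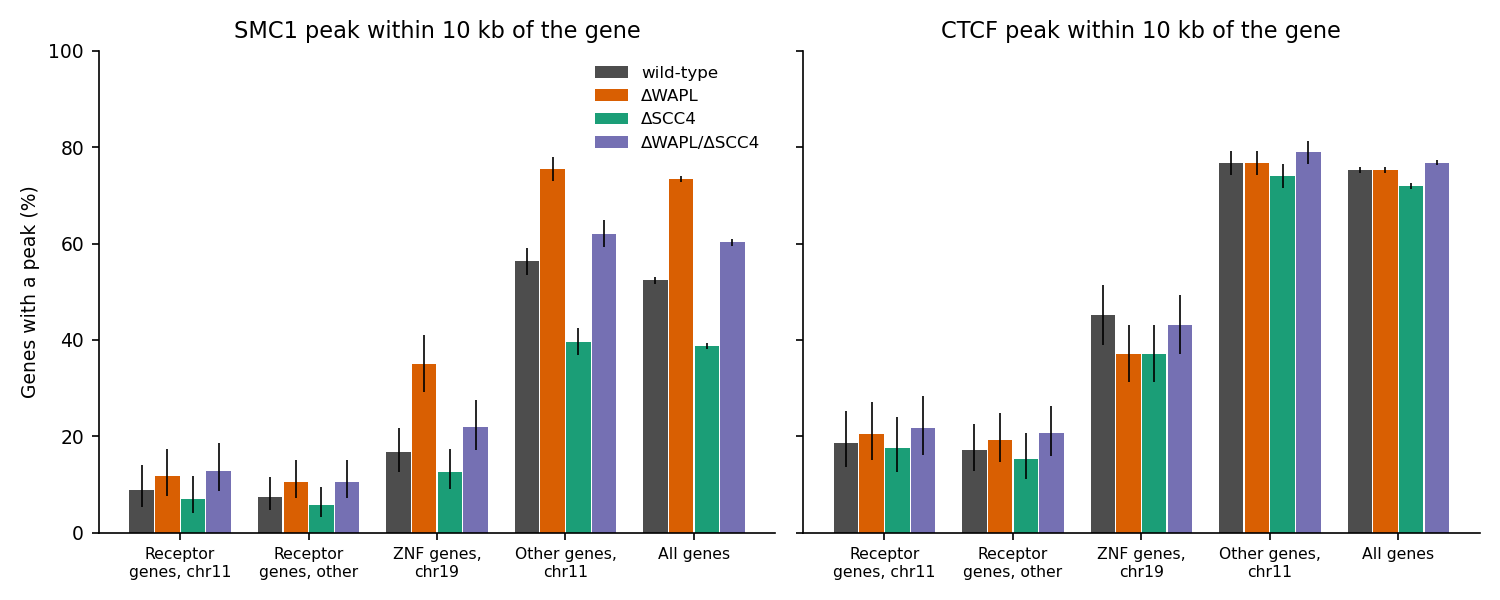
Share of genes (%) with an SMC1 peak (left) or a CTCF peak (right) within 10 kb, by gene group and genotype, where bars are 1 library each and lines are 95% Wilson intervals. Receptor genes of chromosome 11 stand at 7.02 to 12.9% for SMC1 and 17.5 to 21.6% for CTCF, close to receptor genes elsewhere and below the other groups.

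SMC1 lay within 10 kb of 22 members in at least 1 genotype and of 10 in all 4 (5.85%, against 35.7% of all genes), whereas 149 members had none in any genotype (87.1%, against 24.2%). The 10 constant members were the class I genes OR52K1, OR52M1, OR51D1, OR51E1, OR51L1, OR51B5, OR51M1 and OR52N2, and the class II genes OR4S1 and OR8A1. Some of them share a peak, such as OR51D1 with OR51E1, and OR51M1 with OR51B5, whose annotated span of 202209 bp encloses it.

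More class I than class II genes had cohesin nearby in each list, and the difference was not tested. Of 55 class I genes, 11, 11, 8 and 13 had an SMC1 peak within 10 kb, where the share was 20.0% in wild-type cells (11.6 to 32.4%), the same in ΔWAPL, 14.5% (7.56 to 26.2%) in ΔSCC4 and 23.6% (14.4 to 36.3%) in the double mutant. Of 116 class II genes the numbers were 4, 9, 4 and 9, with 3.45% (1.35 to 8.53%) in both wild-type and ΔSCC4 cells and 7.76% (4.14 to 14.1%) in the other genotypes. The intervals of the classes overlap in ΔWAPL and ΔSCC4 cells and not in the other genotypes. They treat genes as independent, which neighbours that share peaks are not, so they cannot decide whether the classes differ. Both classes lie below the 52.3%, 73.3%, 38.7% and 60.2% of all genes. The class I cluster also holds 19 protein-coding genes that are not members, among them the beta-like globin genes and several TRIM genes. The median distance to the nearest wild-type SMC1 summit was 43.1 kb for class I and 153 kb for class II genes. In ΔWAPL cells these distances were 41.7 kb and 81.2 kb, so the class II median differed more.

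Of the 156 members with no SMC1 peak in wild-type cells, 5 had one in ΔWAPL cells (3.21%, 1.38 to 7.28%), against 46.2% of all genes without a wild-type peak. None of the 15 members with a wild-type peak lacked one in ΔWAPL cells (upper Wilson bound 20.4%), against 1.98% of all genes with a wild-type peak. The 5 were OR4B1, OR5B21, OR5A2, OR5A1 and OR10D3, each of class II. OR5A2 and OR5A1 share a site, whose ΔWAPL pileup was 12 reads. Another 5 of the 15 lacked an SMC1 peak in the ΔSCC4 list (33.3%, against 30.6%), namely OR52A5, OR52L1, OR56A4, OR2AG2 and OR8B3. Their wild-type summits held 11 to 18 reads, and all 5 had a peak in both ΔWAPL and double mutant cells. OR5B21 and OR10D3 had a peak in ΔSCC4 and not in wild-type cells (1.28%, against 5.10%), and 7 members did so in the double mutant (4.49%, against 24.2%). Among those 7 members, OR51V1 and OR51B4 had SMC1 in the double mutant alone. For receptor genes of other chromosomes these shares were 4.27% in ΔWAPL, 0.474% in ΔSCC4 and 3.79% in double mutant cells.

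Each peak was also counted once, by its summit. The clusters held 16, 31, 13 and 24 SMC1 summits. Per Mb these are 2.72, 5.28, 2.21 and 4.09, against 8.10, 14, 5.40 and 10.7 on the rest of chromosome 11. For wild-type cells the ratio of the densities was 0.337 (95% interval 0.192 to 0.549). It came to 0.376 (0.255 to 0.536) with ΔWAPL, to 0.410 (0.217 to 0.705) with ΔSCC4 and to 0.382 (0.244 to 0.571) with both. The 4 intervals overlap widely. Receptor clusters of 17 other chromosomes, which cover 9.93 Mb, gave ratios of 0.480, 0.499, 0.636 and 0.580 against the rest of those chromosomes.

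CTCF summits were less sparse in the clusters. There were 51, 58, 47 and 64 of them in the same order of genotypes, or 8.68, 9.88, 8.00 and 10.9 per Mb, against 17.5, 18.5, 15.6 and 19.4 on the rest of the chromosome. The ratios ran from 0.497 (0.369 to 0.656) in wild-type to 0.563 (0.432 to 0.721) in double mutant cells. Most of chromosome 11 is richer in genes than these clusters are in genes that are not members. Cluster sequence over 10 kb from any protein-coding gene that is no member was therefore set against other chromosome 11 sequence equally far from such genes. These genes include the receptor genes whose symbol ends in P. The SMC1 ratios were then 0.519, 0.602, 0.534 and 0.527, nearer to 1, and the interval in ΔSCC4 cells (0.241 to 1.03) included 1. The CTCF ratios were 0.672, 0.642, 0.694 and 0.701.

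**Figure D2:**
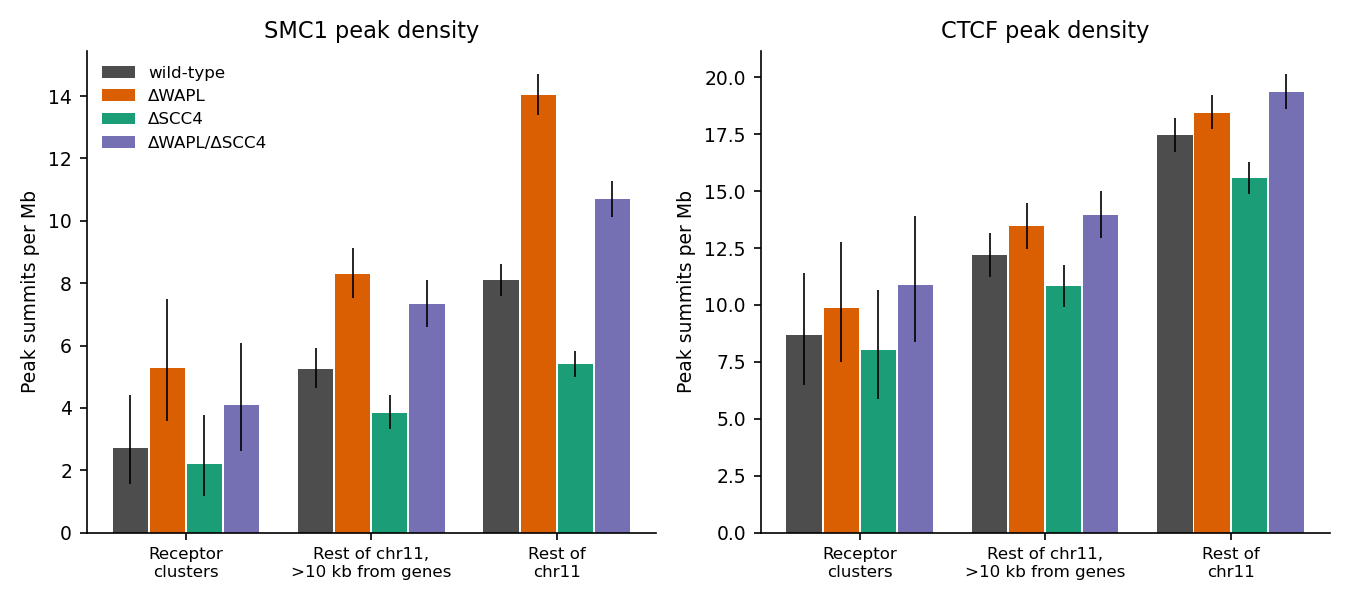
Peak summits per Mb for SMC1 (left) and CTCF (right) in the receptor clusters, on the rest of chromosome 11 over 10 kb from any protein-coding gene, and on the whole rest of the chromosome, with lines for 95% Poisson intervals. The clusters are lowest in every genotype, from 2.21 to 5.28 SMC1 summits per Mb.

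The number of SMC1 summits was also compared between genotypes. The ratio of ΔWAPL to wild-type was 1.94 in the clusters (95% interval 1.03 to 3.79), 1.73 on the rest of chromosome 11 and 1.91 in receptor clusters elsewhere. For ΔSCC4 it was 0.813 (0.360 to 1.80) against 0.668, and for the double mutant 1.50 (0.764 to 3.02) against 1.32, so that both of these cluster intervals include 1. Between the receptor classes, the ΔWAPL ratio was 1.40 (0.578 to 3.52) in the class I cluster, from 10 to 14 summits, and 2.83 (1.07 to 8.78) in the 10 class II clusters, from 6 to 17. These 2 intervals overlap, and the difference was not tested. In the double mutant the class I cluster held 16 summits and the class II clusters 8.

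Few SMC1 peaks of the clusters lacked CTCF. None of the 16 wild-type SMC1 peaks (upper Wilson bound 19.4%), 1 of 31 in ΔWAPL (3.23%, 0.572 to 16.2%), none of 13 in ΔSCC4 (22.8%) and none of 24 in the double mutant (13.8%) lacked a CTCF peak of the same genotype. On the rest of chromosome 11 the shares were 4.64%, 16.1%, 3.25% and 5.15%, which the cluster intervals include in every genotype. The exception, near the non-coding gene LINC02739, had 12 reads in ΔWAPL cells and lay at a CTCF peak of the double mutant. Receptor clusters of other chromosomes did hold such peaks, with 13 of 61 in ΔWAPL cells. Start sites of members showed little cohesin, too. An SMC1 summit lay within 1 kb of the start of OR51D1 and OR52N2 in all 4 genotypes and of no other member, against 19.5% of the other chromosome 11 genes in wild-type and 44.7% in ΔWAPL cells.

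Merging the lists gave 34 SMC1 regions in the clusters, of which 17 lay in the class I cluster. In all 4 genotypes there were 9 of them (26.5%, 14.6 to 43.1%), against 30.5% of 1911 regions on the rest of the chromosome. ΔWAPL alone had 7 (20.6%, against 23.8%), and 6 were shared by ΔWAPL and double mutant cells only (17.6%, against 15.8%). Of the 18 regions with no wild-type SMC1 peak, 15 lay at a CTCF peak that wild-type cells already had. Of the 15 with a peak in ΔWAPL and none in wild-type cells, 12 were at a wild-type CTCF peak (80.0%, 54.8 to 93.0%), against 64% of 809 such regions elsewhere on chromosome 11.

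**Figure D3:**
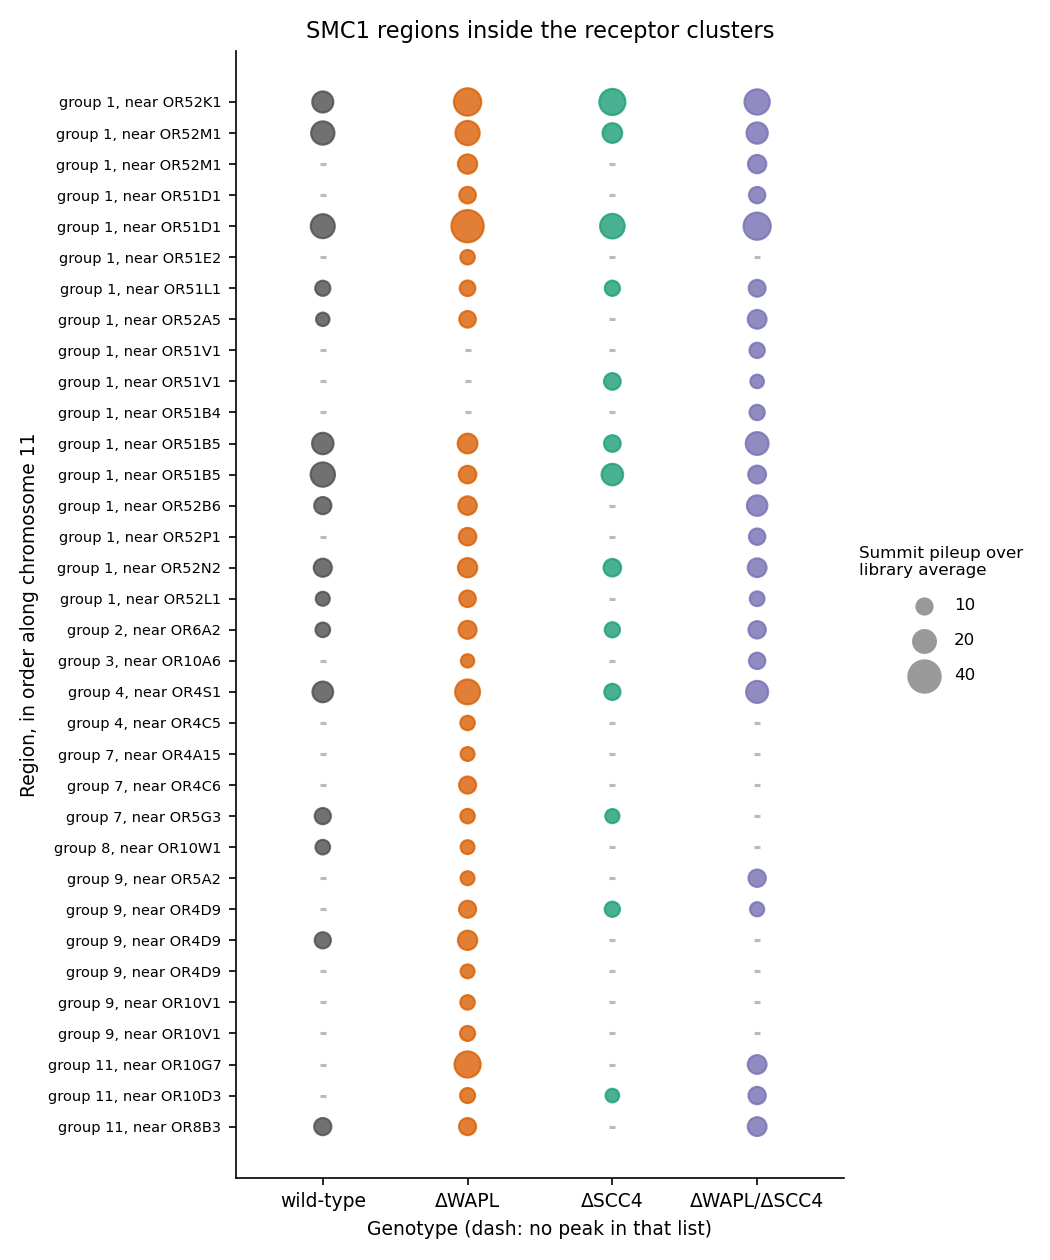
The 34 SMC1 regions of the clusters in order along chromosome 11 (rows, named by the nearest member) in the 4 genotypes (columns), where the area of a circle gives the summit pileup over the library average and a dash means no peak in that list. Rows filled in all 4 columns are mostly in group 1, the class I cluster, and 7 rows are filled in ΔWAPL alone.

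The site just upstream of OR51D1 had the highest SMC1 pileup of the clusters in ΔWAPL and double mutant cells. In wild-type cells the OR51B5 site described below, and in ΔSCC4 cells that of OR52K1, held more reads. The OR51D1 SMC1 summit, at the OR51D1 sequence printed above and 0.382 to 0.421 kb from the gene's start, held 35, 64, 39 and 44 reads. The fold enrichment, which is the pileup over the local background with 1 read added to each, was 10.0, 14.4, 11.8 and 11.3. Scaled to the library average, the ΔWAPL pileup was 1.81 times the wild-type one (95% interval 1.18 to 2.82). The interval included 1 in ΔSCC4 cells (1.05, 0.648 to 1.71) and in the double mutant (1.29, 0.806 to 2.06).

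OR52K1 was alike. The site in its last exon held 27, 46, 44 and 38 reads in the same order, and the ΔWAPL ratio was 1.69 (1.03 to 2.82). At OR52M1, 5.4 kb upstream of the gene, the reads were 33, 36, 25 and 27, and no mutant differed from wild-type beyond counting error. OR52N2, with its site 0.254 to 0.349 kb from the start, stood at 20, 23, 20 and 21 reads, the most even of these sites. At the class II gene OR4S1 they were 26, 38, 17 and 29, and the intervals of all 3 ratios included 1.

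OR51B5 went the other way. Of its 2 intronic sites, the one printed above held 36 reads in wild-type cells but 19 in ΔWAPL, 30 in ΔSCC4 and 19 in the double mutant, with fold enrichments of 13.3, 7.71, 11.4 and 7.28. The ratio was 0.522 (0.283 to 0.935) for ΔWAPL and 0.540 (0.292 to 0.966) for the double mutant. CTCF enrichment at that site was even, at 19.5, 18.3, 16.9 and 18.1. The other OR51B5 site held 28, 24, 18 and 31 reads. The remaining constant regions, near OR51L1 and OR6A2, were weaker, with 13 to 20 reads.

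Taking the 9 constant regions together, the scaled SMC1 pileup in ΔWAPL cells was a median 1.14 times that in wild-type cells (quartiles 1.06 to 1.52), and it was higher at 7 of the 9. Of the 9, 7 lay in the class I cluster, so the median rests mostly on that locus. Ratios there ran from 0.522 to 1.81, and the class II regions near OR6A2 and OR4S1 had 1.52 and 1.45. On the rest of chromosome 11 the median over 583 constant regions was 1.81 (1.41 to 2.35), with 91.3% higher, and it was also 1.81 over the 169 of them far from genes. The 22 constant regions in receptor clusters of other chromosomes gave 1.33 (1.19 to 1.90). Median wild-type pileups were 17.1 times the library average in the clusters, 15.9 on the rest of the chromosome and 12.7 in receptor clusters of other chromosomes. Their bearing on the ratios was not tested. By fold enrichment the ΔWAPL medians were 1.08 in the clusters and 1.31 on the rest of the chromosome. They were 1.26 both in receptor clusters of other chromosomes and over all chromosomes. By pileup, the ΔWAPL median over the 10707 constant regions of all chromosomes was 1.67. The medians for ΔSCC4 were 0.943 in the clusters and 0.813 outside, and those for the double mutant 1.14 and 1.29. Of the 9 regions, 6 had a ΔWAPL interval that included 1, and the gap was not tested. CTCF showed no such gap, with ΔWAPL medians of 0.810 over 42 constant regions in the clusters and 0.807 over 1812 outside.

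**Figure D4:**
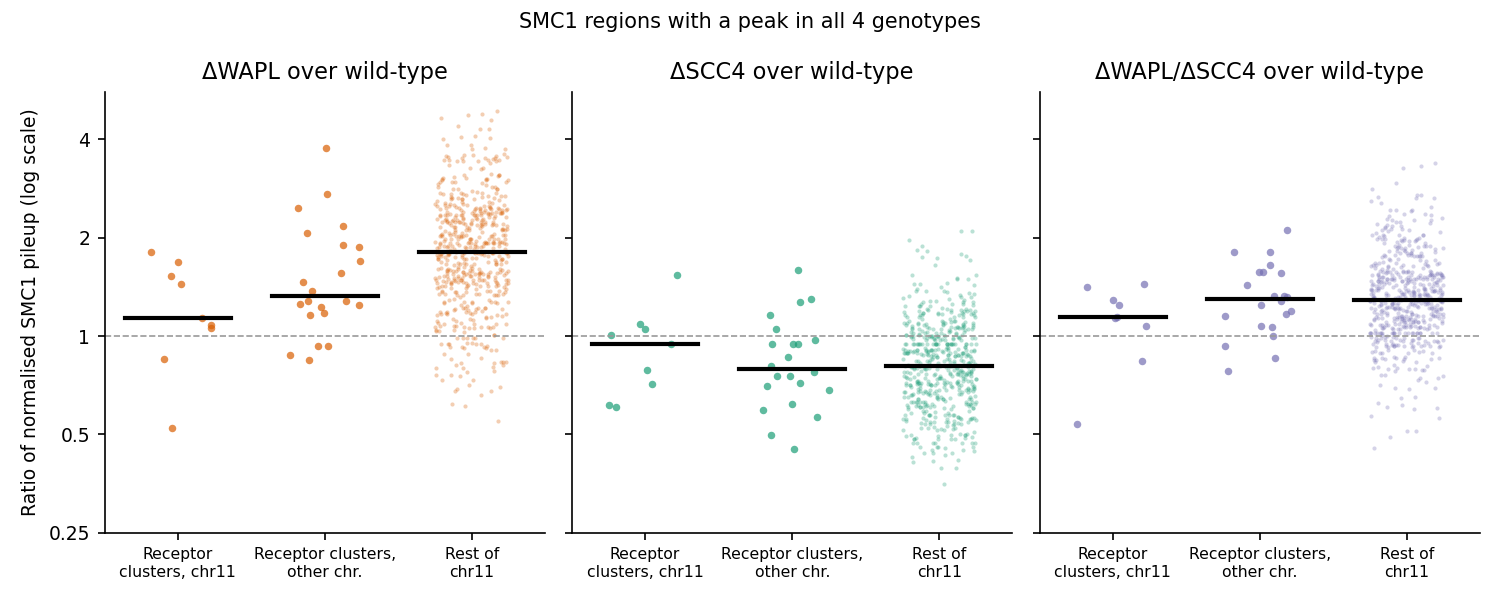
Ratio of SMC1 summit pileup, scaled to the library average, to wild-type (log scale) in the 3 mutants, for regions with a peak in all 4 genotypes. Points are regions and bars are medians, and in the ΔWAPL panel the medians are 1.14 for chromosome 11 receptor clusters, 1.33 for receptor clusters elsewhere and 1.81 for the rest of chromosome 11. Of the 9 regions in chromosome 11 receptor clusters, 7 lie in the class I cluster.

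The largest SMC1 peak without a wild-type counterpart was that near OR10G7, in the cluster from OR6X1 to OR8A1. It held 42 reads in ΔWAPL cells (fold enrichment 10.6) and 21 in the double mutant (6.46), with no peak in wild-type or ΔSCC4 cells. CTCF was there in all 4 genotypes, at 10.6, 12.3, 8.70 and 13.4. In the cluster from OR5AN1 to OR10V1, SMC1 summits numbered 1, 6, 1 and 2. Most of these ΔWAPL peaks were weak, and the one nearest a member, 3.72 kb from OR5A2, reached an enrichment of 5.01 there and 6.49 in double mutant cells.

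A few weak SMC1 sites lay near the globin genes, which are inside the class I cluster. A summit 0.066 kb from HBB held 18 reads in ΔSCC4 and 11 in double mutant cells, and the double mutant alone had summits of 14 reads near OR51V1 and near OR51B4. In all clusters, 2 of the 34 SMC1 regions were found in the double mutant alone (5.88%, against 4.40% on the rest of the chromosome). ΔSCC4 and double mutant cells only shared 1 region (2.94%, against 0.314%).

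Many CTCF sites of the clusters carried no detectable cohesin. Of 74 CTCF regions, 42 were present in all 4 genotypes (56.8%, 45.4 to 67.4%), against 67.1% of 2701 regions on the rest of the chromosome. No SMC1 region of any genotype overlapped 40 of the 74, and 12 of these were themselves constant. The share without SMC1 in any genotype was not computed outside the clusters, so whether 40 of 74 is unusual is not known. The share of CTCF peaks at an SMC1 peak was 31.4%, 51.7%, 27.7% and 37.5%, against 44.1%, 64.4%, 33.5% and 52.3% on the rest of the chromosome. The interval included the outside value in wild-type (20.3 to 45.0%) and ΔSCC4 cells (16.9 to 41.8%). It lay below that value in ΔWAPL (39.2 to 64.1%) and double mutant cells (26.7 to 49.7%). In ΔWAPL cells the margin was narrow, and the outside interval (62.5 to 66.4%) overlaps that of the clusters. The share over all chromosomes was 60.8% in ΔWAPL cells, inside the cluster interval, and 52.2% in the double mutant, above it. In receptor clusters of other chromosomes, 31 of 98, 48 of 100, 26 of 83 and 52 of 113 CTCF peaks were at an SMC1 peak. The site near OR4C6 printed above is the strongest constant CTCF region without SMC1 in wild-type cells, with CTCF enrichments of 16.6, 16, 18.5 and 14.

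The CTCF motif was found under most of these sites. It matched 43 of 51 wild-type CTCF summits in the clusters (84.3%) and 82.8%, 80.9% and 73.4% of those in the mutants, against 81.2% of wild-type summits on other chromosomes. On the rest of chromosome 11 it matched 81.8%, 82.9%, 85.0% and 80.3% in the same order of genotypes. CTCF peaks with SMC1 matched in 93.8%, 93.3%, 92.3% and 91.7% of cases, and those without in 80.0%, 71.4%, 76.5% and 62.5%. The rest of chromosome 11 showed a similar split, with 93.4%, 91.3%, 94.9% and 92.0% against 72.7%, 67.8%, 80.0% and 67.5%. Over regions, 38 of the 42 constant ones matched and 17 of the other 32. The matches lay on the plus strand in 31 and on the minus strand in 24 of 55.

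Because receptor clusters grew by duplication, the 94 matched sites in and within 100 kb of the clusters were compared with each other. The median pair was 35.6% identical, and 7 of 4371 pairs were alike in at least 28 of the 40 bases beside the motif. The closest were the OR5D2P and OR5D3P sites printed above, identical at 57 of 59 bases. Their wild-type CTCF enrichments were 11.5 and 5.76, and SMC1 was present at the OR5D2P copy in ΔWAPL cells (18 reads) and not detected at the OR5D3P copy. A site near OR4C5 (chr11:48406403-48406461) and another beside the cluster that ends at OR4C46 (chr11:51560117-51560175) were identical at 54 of 59 bases. The OR4C5 site held SMC1 in ΔWAPL cells and the other in no genotype.

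Long stretches of receptor genes had no cohesin peak. In the cluster from OR4A16 to OR5AK2, no SMC1 summit of any genotype fell in 1126 kb (chr11:55482888-56608861), which hold 39 of its 48 genes. In wild-type cells the empty stretch was 1498 kb with 47 genes, and in the double mutant the whole cluster was empty. CTCF was present within it, with 11, 10, 8 and 11 summits in the 4 genotypes. In the class I cluster the longest stretch free of SMC1 in every genotype was 282 kb with 10 genes. The clusters from OR4C13 to OR4C12, from OR4A5 to OR4C46, and the lone gene OR2AT4 had neither SMC1 nor CTCF, but they are short, at 30.1, 105 and 15.1 kb.

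Cohesin was also counted at the cluster borders. Of 22 borders, 13 had an SMC1 summit within 100 kb outside the outermost member in wild-type cells. The mutants gave 13, 11 and 13 such borders, and 14 had CTCF in each genotype. Some of these summits lay past the first protein-coding gene that is no member. Counted only up to that gene, at any distance, 12, 12, 11 and 13 borders had an SMC1 summit. The density over the first 50 kb outside was 10.0 per Mb in wild-type (4.99 to 17.9), and 17.3, 9.09 and 14.5 in the mutants. Their intervals include the 8.10, 14, 5.40 and 10.7 per Mb of the whole rest of the chromosome. In the outermost 50 kb inside the 8 edges of clusters longer than 400 kb, the 4 lists held 0, 1, 0 and 0 SMC1 summits, and from 50 to 100 kb inside there was none in any genotype. A count of 0 over these 0.4 Mb allows up to 9.22 per Mb, so the inner and outer intervals overlap in wild-type cells. The outer counts cover all 22 borders. The inner ones leave out the shorter clusters, such as those that hold the constant OR6A2 and OR4S1 sites.

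**Figure D5:**
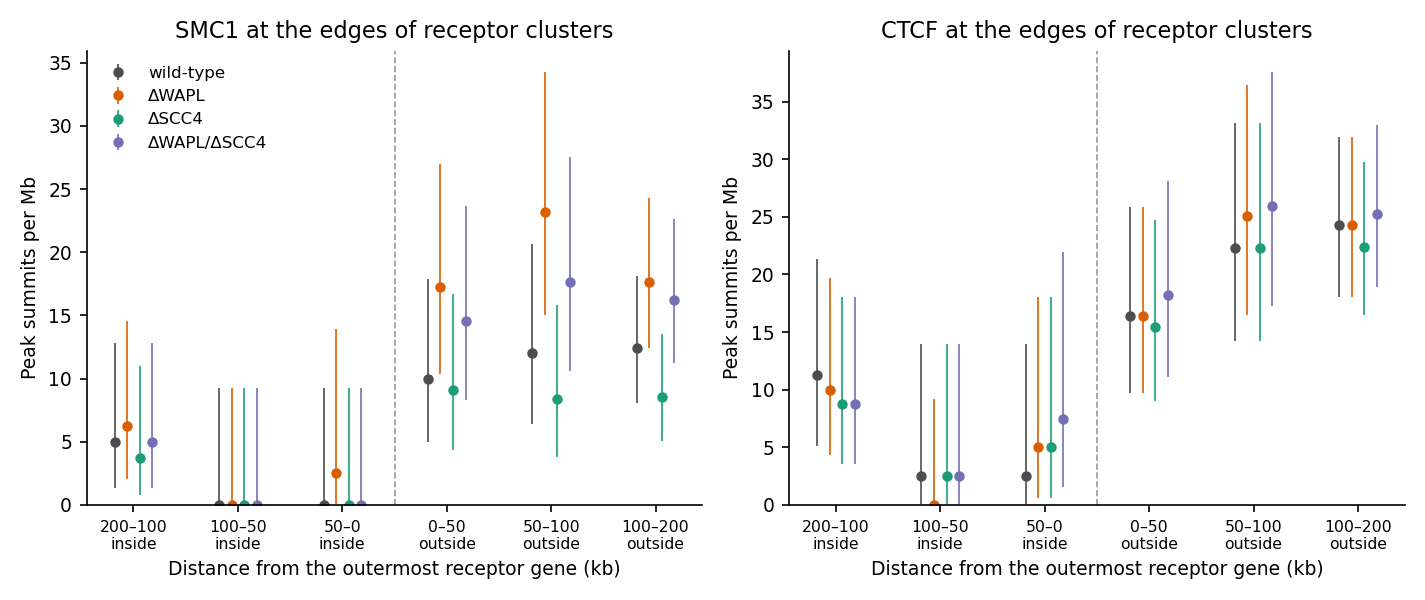
SMC1 (left) and CTCF (right) summits per Mb by distance from the outermost receptor gene (kb), inside 8 edges of large clusters and outside 22 borders, with 95% Poisson intervals. SMC1 is at 0 in wild-type cells over the outer 100 kb inside these 8 edges and at 10.0 per Mb over the first 50 kb outside all 22 borders, so the sets differ.

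Several border sites had strong SMC1 or CTCF enrichment. Beyond OR52W1, the last class I gene, the first SMC1 summit lay 51.1 kb outside with enrichments of 12.9, 13.6, 10.9 and 12.7, on a CTCF peak of 23.7, 18.9, 16.8 and 17.8. Beyond OR10A3 it lay 45.4 kb outside at EIF3F, which encodes a translation initiation factor subunit, with 10.6, 14.1, 11.7 and 13.2. The OR52W1 and OR10A3 border summits lay past the first neighbouring genes, C11orf42 and NLRP10, which begin 5.37 and 15.8 kb outside. The OR8A1 border site printed above lay 3.48 kb outside, at 6.85, 6.55, 9.61 and 7.34 for SMC1 and 22.5, 15.9, 17.1 and 15.2 for CTCF. ΔSCC4 cells had the highest SMC1 value there. Scaled to the library average, the ΔWAPL pileup beyond OR52W1 was 1.42 times the wild-type one (0.928 to 2.20). The OR10A3 site stood at 1.86 (1.25 to 2.80) and the OR8A1 site at 0.801 (0.397 to 1.59). Over the constant regions within 100 kb outside the clusters, this ratio ran from 0.780 near OR4C46 to 3.75 near OR4B1. The left borders at OR52B4, OR5P2, OR4C13, OR4A5, OR4A16 and OR9Q1 and the right borders at OR2D3 and OR4A47 had neither protein within 100 kb in any genotype. Of the nearest CTCF site at each of the 14 borders with one, the motif pointed away from the cluster at 8, into it at 4, and was not matched at 2.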

How the data were processed

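Single-end reads were mapped by the authors to hg19 with Bowtie2 and peaks were called in each library with MACS2 2.1.1. The 12 deposited lists give, for each peak, the fold enrichment at the summit as a ratio and the −log10 p and −log10 q of the peak caller. The deposited score column, which the authors' peak caller fills with a rounded multiple of the −log10 q, was not used. The calling threshold is not given in the sources used here. The methods name IgG as the control, but the backgrounds behind every list equal whole reads in 10 kb of the same library, so the values were taken as relative to each library's own background. Summit pileups, in whole reads, and depth were recovered by solving the fold enrichment and −log10 p together, and this step and the motif search were tested on simulated data. A pileup was divided by the library average before genotypes were set side by side.

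The titles gave the genotype and antibody of each library, 1 for each pair. Genes were those of GENCODE version 44 on GRCh37, whose chromosome lengths hold every peak. A peak was near a gene when it overlapped the gene extended by 10 kb, lists were compared by an overlap of at least 1 bp, and peaks of 1 antibody were merged into regions by the same rule. Shares have 95% Wilson intervals, densities exact Poisson intervals and ratios of 2 counts exact intervals. PCR duplicates cannot be seen in the lists, so intervals cover counting error only. The fit of a model across genes was not possible with 1 library in each group, so there are no p-values. Members named are the outermost gene of each cluster, those nearest the strongest SMC1 regions, and those with SMC1 at a start or in a coding exon. Other named members were chosen after their values were seen, as were the comparisons with receptor clusters of other chromosomes, of near-identical sites, of constant regions by area and of class I with class II clusters. The members and gene lists were chosen with earlier results of these data known. Analyses used Python 3.11.15, numpy 2.4.6, pandas 2.3.3, scipy 1.17.1, pysam 0.24.0 and matplotlib 3.10.9.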

Additional observations from a re-analysis of the deposited data

Results flagged for a closer look

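Between the wild-type background and the ΔWAPL background, loss of SCC4 went with opposite differences in 3 of the counts. Members with an SMC1 peak within 10 kb numbered 12 in ΔSCC4 against 15 in wild-type cells, a difference of -3, but 22 in the double mutant against 20 in ΔWAPL cells, a difference of 2. Members with a CTCF peak differed by -2 (30 against 32) and by 2 (37 against 35). CTCF summits in the clusters differed by -4 (47 against 51) and by 6 (64 against 58). Each count rests on 1 library and the differences were not tested. The signs in the ΔWAPL background did not hold under all settings. For members with SMC1 the difference was -3 within 20 kb (31 against 34). For members with CTCF it kept its sign under 4 of 8 other settings, was 0 under 1 and was negative under 3, and for CTCF summits it was negative under 2 of 7. The number of SMC1 summits in the clusters was lower in both backgrounds, at 13 against 16 and at 24 against 31.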

How the results depend on the processing

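Of 130 single counts and ratios recomputed under other settings, 99 stayed close to the reported ones and 31 moved. All 56 density ratios of the clusters to the rest of the chromosome stayed below 1, and 54 had an interval below 1. Most moves followed from the width of the window or the height of the threshold. With a −log10 q of at least 10, members with an SMC1 peak numbered 9, 8, 6 and 11 in the order of genotypes used above. Within 5 kb the SMC1 count was 11 in ΔWAPL and 12 in the double mutant, and within 20 kb it was 24 in wild-type and 34 in ΔWAPL cells. Around gene starts alone it was 9, 13 and 14 in wild-type, ΔWAPL and double mutant cells. Members with a CTCF peak numbered 16, 20, 14 and 19 within 5 kb and 51, 56, 49 and 58 within 20 kb, and 21, 22 and 19 around starts in wild-type, ΔWAPL and ΔSCC4 cells. Joining members up to 1000 kb apart takes in more non-receptor sequence, and the density ratios were then 0.688, 0.751, 0.757 and 0.742 for SMC1 and 0.794, 0.825, 0.836 and 0.823 for CTCF, with the ΔSCC4 upper bounds at 1.07 and 1.02. Against CTCF peaks of any genotype, SMC1 peaks without CTCF in ΔWAPL cells went from 1 to 0. SMC1 summits in ΔWAPL over those in wild-type gave ratios that ranged from 1.86 to 2.18, and with a −log10 q of at least 10 the interval (0.689 to 5.50) included 1. Some differences between genotypes changed sign. Members with SMC1 in ΔWAPL minus wild-type were 5 as reported and -1 with a −log10 q of at least 10 (8 against 9). The double mutant minus ΔWAPL was -3 within 20 kb for members with SMC1 (31 against 34). For members with CTCF it was -2 with a −log10 q of at least 5 (32 against 34), -2 with at least 10 (27 against 29) and -1 within 5 kb (19 against 20), and 0 after thinning (30 against 30). For CTCF summits it was -1 with a −log10 q of at least 5 (54 against 55) and -4 with at least 10 (39 against 43). No paired analysis was possible because each group held 1 library. Summit pileups of 10 to 40 reads limit what single sites can show, and the lists say nothing of enrichment below the calling threshold.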
